A study of Mus musculus with 15 samples.

Results

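Genes of the MHC class II presentation pathway were followed through rejecting mouse heart and liver grafts. The set is a list of gene names and uses no measured threshold: H2-Aa, H2-Ab1, H2-Eb1, H2-DMa, H2-DMb1, H2-Oa, Cd74 and Ciita. Of these 8 genes, 7 had a probe on the array that could be named through its accession, out of 18217 genes named in that way, and H2-Eb1 is not analysed here.

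Total RNA of whole grafts was hybridized to 15 arrays with a single dye, and each of 5 groups had 3 of them. Heart allografts (C57BL/10, H-2b, donors and CBA, H-2k, recipients, placed in the abdomen beside the recipient's own heart) were taken at post-operative day (POD) 5. Liver allografts (B10.BR, H-2k, donors and B10.D2, H-2d, recipients, replacing the recipient's liver) were taken at POD5 or POD8. Heart and liver controls had 3 arrays each and came from normal tissue according to the labels, while other passages of the study call them isografts. All mice were male, and the strain of the controls, the ages and any immunosuppression are not given in the sources used here. Class II genes are among those that differ most between H-2 haplotypes, so the groups may carry different alleles of the members. How well the probes match each allele was not tested. A graft holds donor cells and immigrant recipient cells together. In bulk RNA, fewer cells of a type and less RNA per cell cannot be told apart.

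MHC class II molecules carry peptides from endosomes to the cell surface, where CD4 T cells read them. H2-Aa and H2-Ab1 encode the alpha and beta chain of one class II molecule, and Cd74 encodes the invariant chain that fills its groove and steers it to the endosome. There the H2-DM dimer (H2-DMa, H2-DMb1) exchanges the remnant of the invariant chain for peptide, and H2-O, of which H2-Oa is the alpha chain, holds H2-DM back. Dendritic cells, macrophages and B cells carry class II at rest, and interferon-gamma induces it in many other cells, endothelium included. Ciita is the transactivator that switches these genes on together. It does not bind DNA itself but sits on a complex of RFX, CREB and NF-Y proteins, which read the X1, X2 and Y boxes of class II promoters.

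The promoters are shown because the members rose together in these grafts, and the genes that Ciita switches on are known for this promoter layout. RefSeq promoter sequences (assembly GRCm38.p6, from C57BL/6J, an H-2b strain) were at hand for 5 of the 8 members. The runs below give the 150 bases before the start site, 5′ to 3′ on the gene's strand, for the members with a brightest probe and a match in that stretch. Capitals mark matches on either strand to AACNGATG (part of the X1 box), TGACGT (the core of the X2 box) or CCAAT (the Y box, which reads ATTGG on the other strand). H2-Aa lies on the minus strand at chr17:34287824-34287973, H2-DMb1 on the plus strand at chr17:34153041-34153190 and H2-Oa on the plus strand at chr17:34092229-34092378.

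H2-Aa: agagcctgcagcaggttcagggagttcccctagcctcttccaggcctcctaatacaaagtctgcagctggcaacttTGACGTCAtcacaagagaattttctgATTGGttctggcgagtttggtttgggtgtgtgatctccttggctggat
H2-DMb1: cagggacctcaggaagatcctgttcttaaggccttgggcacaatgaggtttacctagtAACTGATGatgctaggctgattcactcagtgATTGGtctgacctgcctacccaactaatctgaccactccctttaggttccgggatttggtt
H2-Oa: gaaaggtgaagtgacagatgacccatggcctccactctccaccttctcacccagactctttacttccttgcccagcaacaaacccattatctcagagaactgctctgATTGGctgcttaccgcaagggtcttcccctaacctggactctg

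The Y box letters began at -48 from the start of H2-Aa, at -61 in H2-DMb1 and at -43 in H2-Oa, reversed in all 3. Among 32851 promoter windows of 300 bases, 37.4% held these letters on either strand, 7.51% held TGACGT and 2.32% held AACNGATG. H2-Aa held TGACGT at -74 on its own strand, overlapping its mirror image at -72, and H2-DMb1 held AACTGATG at -92. H2-Eb1, which had no probe, held AACTGATG at -89, ATTGG at -59 and CCAAT at -35. H2-DMa had 2 windows, of which the second held ATTGG at -198 and the first held none of the 3 motifs. These matches describe letters and not bound factors.

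The signal that each array offered differed between groups. Its processed signal at the 75th percentile lay between 394 and 710 for the heart allografts, 1021 and 1247 for the heart controls, 338 and 478 for the POD5 livers, 384 and 454 for the POD8 livers, and 92.1 and 226 for the liver controls, with liver control 1 the dimmest. Between 52.6% and 70.5% of probes were well above background. The 3 heart allografts shared a slide with POD5 liver 3, and the 3 heart controls lay on a different slide. In the heart, what is due to slide and what to group cannot be told apart. The POD5 livers shared no slide with the liver controls or the POD8 livers, so the same holds for those comparisons. Markers matched the labels: all 8 cardiomyocyte genes were higher in heart than in liver controls, and all 6 measured hepatocyte genes lower. Levels below are log2 of the quantile-normalized processed signal on the brightest probe of a gene. All 7 such probes were well above background on every array. A level of one gene cannot be set against that of another, since probes differ in brightness, so only differences between groups are compared. "Called" means an adjusted P-value below 0.05 in limma over 41003 probes, and errors beside differences are SE, with 3 arrays against 3. Separate mice are described for the PCR measurements of the study, but the labels do not tie the arrays of a group to separate mice, and P-values measure the spread between these samples.

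All 7 measured members were called higher in the allografts of each phase. In the hearts at POD5, 7 of 7 were called higher, where 13.3% of all probes were called higher and 15.3% lower. The members' median log2 difference was 3.60, and that of all probes 0.02. In the livers at POD5, 7 of 7 were called higher, against 8.12% of all probes (7.02% lower), with a median of 3.44 against -0.07. In the livers at POD8, 7 of 7 were called higher, against 7.02% of all probes (4.65% lower), with a median of 3.89 against -0.08. The liver comparisons share their 3 controls. For every member, all 3 allografts lay above all 3 controls in each phase, as did 29.0% of all probes in the hearts, 12.4% in the POD5 livers and 12.9% in the POD8 livers. With each array scaled to its 75th percentile, and no quantile normalization, there was a shift that moved the median of all probes to 0.47, -0.37 and -0.46 in these comparisons, and the probes called higher and lower in the hearts from 5433 and 6288 to 15223 and 5448. In the livers, the same scaling moved them from 3329 and 2878 to 3010 and 6333 at POD5, and from 2880 and 1907 to 2879 and 11012 at POD8. All 7 members were called higher in each phase under that scaling too. Within the slide that held 2 POD8 livers and 2 liver controls, the members were higher in the allografts by 2.18 to 4.89 and none was called by limma (adjusted P between 0.0531 and 0.141).

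**Figure D1:**
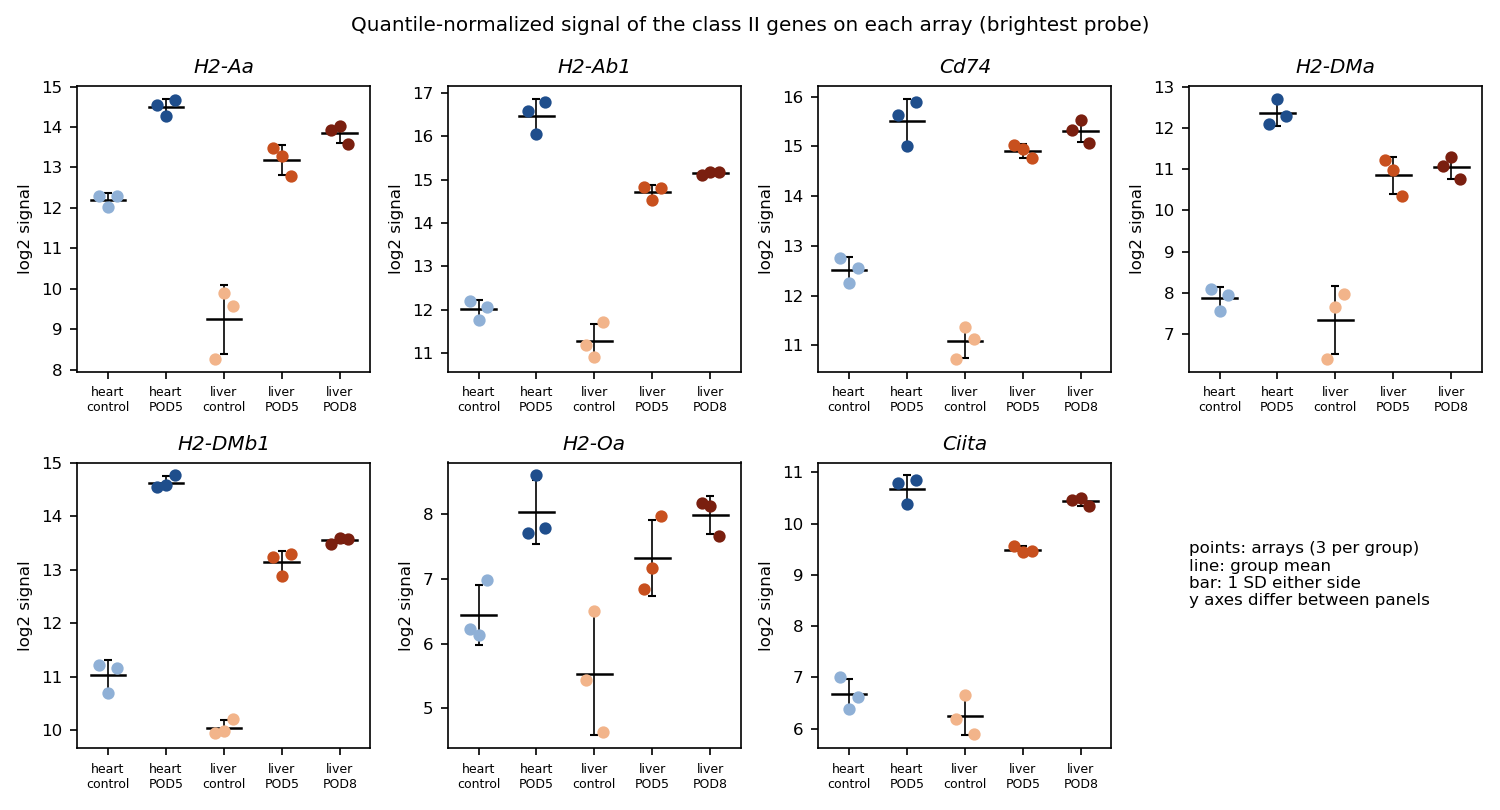
Log2 quantile-normalized signal (y axis) of the brightest probe of each of the 7 members on each of the 15 arrays, by group (x axis), with points for arrays, a line for the mean and a bar for 1 SD either side. The 3 allografts of a phase lay above the 3 controls of the same organ in every panel, and H2-Oa showed the widest spread within groups.

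The group means of all 7 members stood in the same order: heart allografts highest, then POD8 livers, POD5 livers, heart controls and liver controls. Scaled to the 75th percentile, 6 of the 7 kept this order, and for Cd74 the POD8 livers came before the heart allografts. Neighbours in the order were not always apart. The arrays of heart allografts and POD8 livers overlapped for Cd74, Ciita and H2-Oa, and those of POD8 and POD5 livers for H2-DMa and H2-Oa. Heart and liver controls overlapped for Ciita, H2-DMa and H2-Oa, and POD5 livers and heart controls for H2-Oa.

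Both chain genes of the class II molecule itself rose in both organs. H2-Aa, the alpha chain, measured 14.55, 14.28 and 14.66 in the heart allografts and 12.30, 12.01 and 12.29 in the heart controls. The groups were apart by 2.29 ± 0.34, which is 4.90-fold (adjusted P = 0.000448). In the liver, H2-Aa measured 8.26, 9.88 and 9.57 in the controls, 13.48, 13.29 and 12.78 at POD5, and 13.91, 14.02 and 13.58 at POD8. Control 1 was the low array of its group, and no allograft came near any control. H2-Aa was 15.4-fold higher than in controls at POD5 (3.94 ± 0.34, adjusted P = 2.17e-05) and 24.2-fold higher at POD8 (4.60 ± 0.34, adjusted P = 7.30e-06). A dimmer second probe of H2-Aa gave 12.0-fold in the heart (3.58 ± 0.55), so that the 2 probes of this gene disagreed on the size of the heart difference by more than 1.5 times. In the liver the second probe gave 22.9-fold at POD5 and 28.6-fold at POD8, and it was well above background on 2 of the 3 liver controls.

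H2-Ab1, the beta chain, measured 16.58, 16.04 and 16.79 in the heart allografts and 12.20, 11.77 and 12.07 in the heart controls. This difference of 4.46 ± 0.23 was 21.95-fold (adjusted P = 1.53e-07). H2-Ab1 stood at 11.20, 10.91 and 11.71 in the liver controls, 14.83, 14.53 and 14.80 at POD5, and 15.11, 15.18 and 15.18 at POD8. The groups did not overlap, and the POD8 arrays lay closest together. H2-Ab1 rose 10.9-fold at POD5 (3.44 ± 0.23, adjusted P = 2.94e-06) and 14.8-fold at POD8 (3.89 ± 0.23, adjusted P = 1.31e-06). Its other probes gave 19.8-fold and 44.9-fold in the heart, 10.9-fold and 10.8-fold in the liver at POD5, and 16.5-fold and 17.8-fold at POD8. The 3 probes thus lay close together in the liver and apart in the heart.

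Cd74, the invariant chain, measured 15.62, 15.02 and 15.89 in the heart allografts and 12.77, 12.25 and 12.56 in the heart controls. It was 7.93-fold higher in the allografts (2.99 ± 0.24, adjusted P = 4.68e-06). In the liver, Cd74 measured 10.73, 11.38 and 11.13 in the controls, 15.03, 14.95 and 14.76 at POD5, and 15.32, 15.54 and 15.08 at POD8. No array of an allograft overlapped with a control in either organ. Cd74 rose 14.3-fold at POD5 (3.84 ± 0.24, adjusted P = 2.28e-06) and 18.8-fold at POD8 (4.24 ± 0.24, adjusted P = 1.03e-06).

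Both chains of H2-DM, the peptide exchanger, rose in every phase. H2-DMa measured 12.10, 12.70 and 12.29 in the heart allografts and 8.09, 7.56 and 7.94 in the heart controls, a difference of 4.50 ± 0.37 or 22.6-fold (adjusted P = 5.40e-06). H2-DMa in the liver measured 6.40, 7.65 and 7.98 in the controls, 11.23, 10.97 and 10.35 at POD5, and 11.08, 11.30 and 10.75 at POD8. The allografts of both days ran into each other but stood clear of the controls, of which control 1 was again the lowest. H2-DMa was 11.4-fold higher at POD5 (3.51 ± 0.37, adjusted P = 8.84e-05) and 13.0-fold higher at POD8 (3.70 ± 0.37, adjusted P = 6.56e-05).

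H2-DMb1 measured 14.54, 14.59 and 14.76 in the heart allografts and 11.23, 10.70 and 11.17 in the heart controls. It was 12.1-fold higher in the allografts (3.60 ± 0.16, adjusted P = 6.55e-08). In the liver, H2-DMb1 stood at 9.94, 9.99 and 10.22 in the controls, 13.24, 12.89 and 13.29 at POD5, and 13.49, 13.60 and 13.58 at POD8. Arrays of a group lay close together for this gene, and the groups did not overlap. H2-DMb1 rose 8.50-fold at POD5 (3.09 ± 0.16, adjusted P = 1.10e-06) and 11.4-fold at POD8 (3.51 ± 0.16, adjusted P = 2.81e-07). Its second probe gave 17.6-fold in the heart, 13.5-fold at POD5 and 20.1-fold at POD8. H2-DMb1 has a near-identical neighbour, H2-DMb2, and a probe of either may read both, so their values are uncertain as to which copy they come from.

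H2-Oa, a chain of the H2-DM inhibitor, had the smallest difference of the 7 members in every phase. It measured 7.71, 8.59 and 7.78 in the heart allografts and 6.23, 6.13 and 6.98 in the heart controls. The groups were apart by 1.58 ± 0.45 or 2.99-fold (adjusted P = 0.0208). In the liver, H2-Oa measured 5.44, 6.50 and 4.63 in the controls, 6.84, 7.16 and 7.97 at POD5, and 8.17, 8.13 and 7.65 at POD8. Arrays of a group were further apart than for the other members, and the lowest POD5 array lay just above the highest control. H2-Oa was 3.48-fold higher at POD5 (1.80 ± 0.45, adjusted P = 0.0209) and 5.51-fold higher at POD8 (2.46 ± 0.45, adjusted P = 0.00448). The heart call was lost without allograft 2 (adjusted P = 0.0790), control 1 (0.0689) or control 2 (0.0749), and the POD5 call without allograft 3 (0.0733) or liver control 1 (0.0581). With the slide as a random block the heart call was lost as well (adjusted P = 0.111). With normexp background correction the liver differences of H2-Oa were 1.03 at POD5 and 1.52 at POD8.

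Ciita, the transactivator, measured 10.80, 10.38 and 10.85 in the heart allografts and 6.9999, 6.39 and 6.61 in the heart controls. The difference was 4.01 ± 0.21 or 16.1-fold (adjusted P = 1.86e-07). Ciita stood at 6.19, 6.66 and 5.90 in the liver controls, 9.57, 9.44 and 9.47 at POD5, and 10.47, 10.50 and 10.34 at POD8. The arrays of each liver allograft group lay close together, the POD8 arrays all above the POD5 arrays and both above the controls. Ciita rose 9.47-fold at POD5 (3.24 ± 0.21, adjusted P = 2.70e-06) and 18.2-fold at POD8 (4.18 ± 0.21, adjusted P = 4.90e-07). With normexp background correction the differences of Ciita were smaller, 8.78-fold in the heart, 5.12-fold at POD5 and 9.68-fold at POD8, and all were still called.

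**Figure D2:**
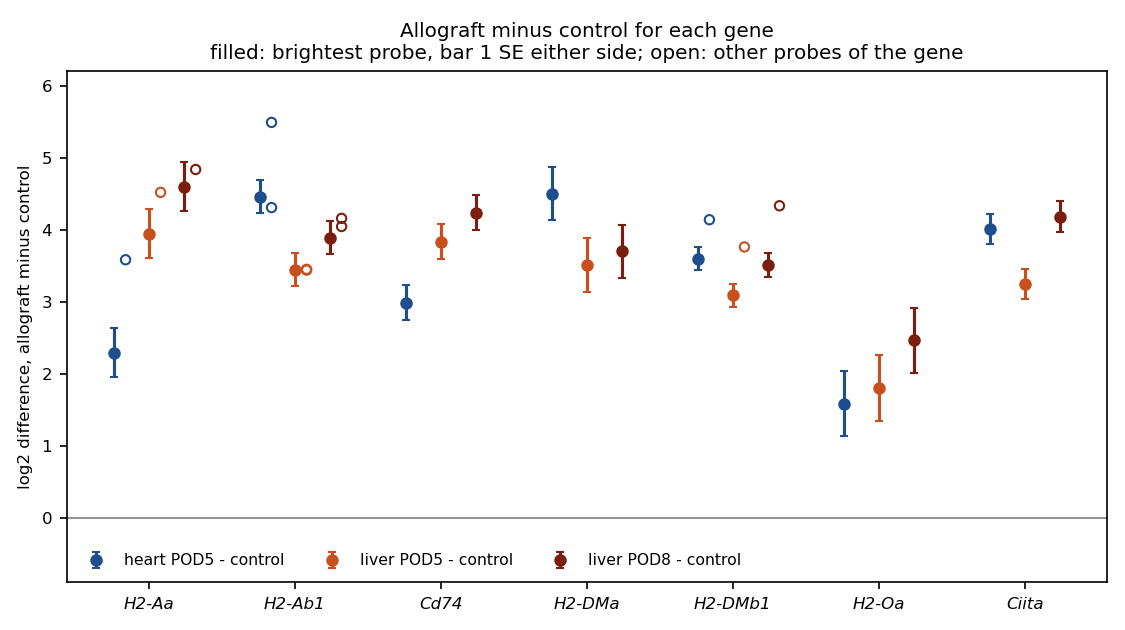
Log2 difference between allograft and control (y axis) for each member (x axis) in the 3 phases, with filled points for the brightest probe, bars for 1 SE either side and open points for the other probes of a gene. All points lay above 0, H2-Oa had the lowest filled point of each phase, and the 2 probes of H2-Aa were furthest apart in the heart (2.29 and 3.58).

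Between POD5 and POD8, no member was called by limma, where 0.0219% of all probes were called higher and 0.00732% lower. At an unadjusted P-value under 0.05 there were 2 members, Ciita and H2-DMb1. The methods' t-test, here with Benjamini-Hochberg adjustment where the methods used Bonferroni adjustment, called 0. All 7 differences were above 0, with a median of 0.44 against 0.00 for all probes. The largest was that of Ciita, 1.92-fold (0.94 ± 0.21, adjusted P = 0.183), and the smallest that of H2-DMa, 1.14-fold (0.19 ± 0.37, adjusted P = 0.915). On their brightest probes, Ciita, H2-Aa, H2-Ab1, H2-DMb1 and Cd74 had all 3 POD8 arrays above all 3 POD5 arrays, as had 9.27% of all probes. The other H2-Ab1 probes did so too. On the second probes of H2-Aa (0.32 ± 0.55, adjusted P = 0.905) and H2-DMb1 (0.57 ± 0.48, adjusted P = 0.747) the days overlapped. H2-DMa and H2-Oa, with a single probe each, overlapped as well.

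The control organs already differed in class II expression. Of the 7 members, 4 were called higher in heart than in liver controls, where 27.6% of all probes were called higher and 26.4% lower, and none was called lower. On the 75th percentile scale the probes called higher and lower went from 11306 and 10819 to 9190 and 19906, with the median of all probes at -0.75 in place of -0.06, and 3 members were called higher. H2-Aa differed most, 7.81-fold (2.97 ± 0.34, adjusted P = 1.36e-05). Cd74 was 2.72-fold higher (adjusted P = 0.000270) and H2-DMb1 1.98-fold higher (adjusted P = 0.000271). H2-Ab1 was 1.67-fold higher (adjusted P = 0.0152), a call that was lost without heart control 1 (adjusted P = 0.0599), without liver control 2 (0.0660) and on the 75th percentile scale (0.0817). The H2-Ab1 call was also lost with the slide as a random block (adjusted P = 0.0575), with the 6 control arrays alone (0.0550) and by the methods' t-test (0.0929), and the heart and liver controls lay on different slides. These 4 genes had all 3 heart controls above all 3 liver controls, as had 30.7% of all probes. H2-DMa (0.52 ± 0.37, adjusted P = 0.254), H2-Oa (0.92 ± 0.45, adjusted P = 0.106) and Ciita (0.41 ± 0.21, adjusted P = 0.115) overlapped and were not called, but Ciita and H2-Oa were called once liver control 2 was left out (adjusted P = 0.0234 and 0.0139).

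In the allografts at POD5 the heart also lay above the liver for the members. These grafts differed in strains and placement as well as in organ, and these parts cannot be told apart. Of 7, 5 were called higher in the heart, where 19.3% of all probes were called higher and 14.7% lower. H2-Ab1 was 3.37-fold higher (1.75 ± 0.23, adjusted P = 6.03e-05), H2-DMa 2.85-fold (adjusted P = 0.00666) and H2-DMb1 2.81-fold (adjusted P = 1.44e-05). H2-Aa was 2.48-fold higher (adjusted P = 0.0101) and Ciita 2.27-fold (adjusted P = 0.000742). These 5 also had all heart arrays above all liver arrays, as had 24.6% of all probes. Cd74 gave 1.51-fold (adjusted P = 0.0785) and H2-Oa 1.63-fold (adjusted P = 0.283), both with overlapping arrays, and Cd74 was called without heart allograft 2 (adjusted P = 0.0126). Against POD5 liver 3 alone, which shared the slide of the heart allografts, the heart means were higher by 0.06 for H2-Oa and by 0.75 to 2.01 for the other 6 members.

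The rise from control to allograft was then compared between the organs at POD5, as an interaction in the same fit. Organ, strains of donor and recipient, and graft placement changed together here, so their parts cannot be told apart. Among the 7 members, 1 was called larger in the heart and 1 smaller, where 8.49% of all probes were called larger and 9.54% smaller. H2-Ab1 rose more in the heart by 1.01 ± 0.32 (adjusted P = 0.0478), and H2-Aa rose less by a difference of -1.65 ± 0.49 (adjusted P = 0.0363). Neither call was firm. Both were lost with the slide as a random block (adjusted P = 0.101 for H2-Ab1 and 0.108 for H2-Aa), and leaving out single arrays left between 0 and 2 calls among the members. Without any 1 of heart allografts 1 and 3, the 3 heart controls and POD5 livers 1 and 2, neither H2-Aa nor H2-Ab1 was called (adjusted P between 0.0525 and 0.106). The second probe of H2-Aa gave -0.94 ± 0.78 (adjusted P = 0.430). The other H2-Ab1 probes gave 2.05 ± 0.63 (adjusted P = 0.0430) and 0.86 ± 0.31 (adjusted P = 0.0777). The interaction of the other members was 0.99 ± 0.52 for H2-DMa, 0.77 ± 0.30 for Ciita, 0.51 ± 0.23 for H2-DMb1, -0.22 ± 0.64 for H2-Oa and -0.85 ± 0.34 for Cd74, none of them called. H2-DMa was called without liver control 1 (1.45, adjusted P = 0.0256). Ciita was called without liver control 3 (0.94, adjusted P = 0.0367) and with normexp background correction (0.78, adjusted P = 0.0282).

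H2-Ab1 and H2-Aa, the chains of a single dimer, changed by unequal amounts in the heart. The gap between the chains of H2-DM was not examined. Their heart differences were 4.50 for H2-DMa, and 3.60 and 4.14 on the brightest and second probe of H2-DMb1. The gap between H2-Ab1 and H2-Aa on one array was 2.03, 1.76 and 2.13 in the heart allografts and -0.10, -0.24 and -0.23 in the heart controls, so the groups were apart. Only the change of a gap can be read, not its size. The gap widened by 2.16, or 4.48-fold, in the hearts, and changed by -0.50 and -0.71 in the POD5 and POD8 livers, where allografts and controls overlapped. Over the 6 pairs of probes of these genes, the heart change ran from 0.72 to 3.20 with the groups apart in all 6. The liver changes ran from -1.08 to -0.44 with the groups apart in none. These 6 pairs reuse the same probes and arrays and are not separate results. The share of other probe pairs with groups apart was not computed. Of single probes, 29.0% had all 3 allografts above all 3 controls in the hearts, 12.4% at POD5 and 12.9% at POD8. Between H2-DMa and H2-Oa, exchanger and inhibitor, the gap widened by 2.92 in the hearts with the groups apart, and by 1.71 and 1.24 in the POD5 and POD8 livers, where they overlapped. Between H2-DMb1 and H2-Oa it widened by 2.02 in the hearts, 1.29 at POD5 and 1.05 at POD8. The exact permutation test, 2-sided, gave P = 0.10 for each heart gap, the smallest it can give with 3 arrays against 3, and P between 0.20 and 0.60 for the liver gaps. A further pair, Cd74 and H2-DMa, changed by -1.51 in the hearts with the groups apart. In the POD5 and POD8 livers its gap changed by 0.33 and 0.53, and the groups overlapped. All these pairs were picked by hand after the values were seen, and 24 gap comparisons were run on their brightest probes. Comparisons over the other probes of these genes were run as well and are not in that count. Pairs of members that were not picked are not in it either, so it understates the choice.

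**Figure D3:**
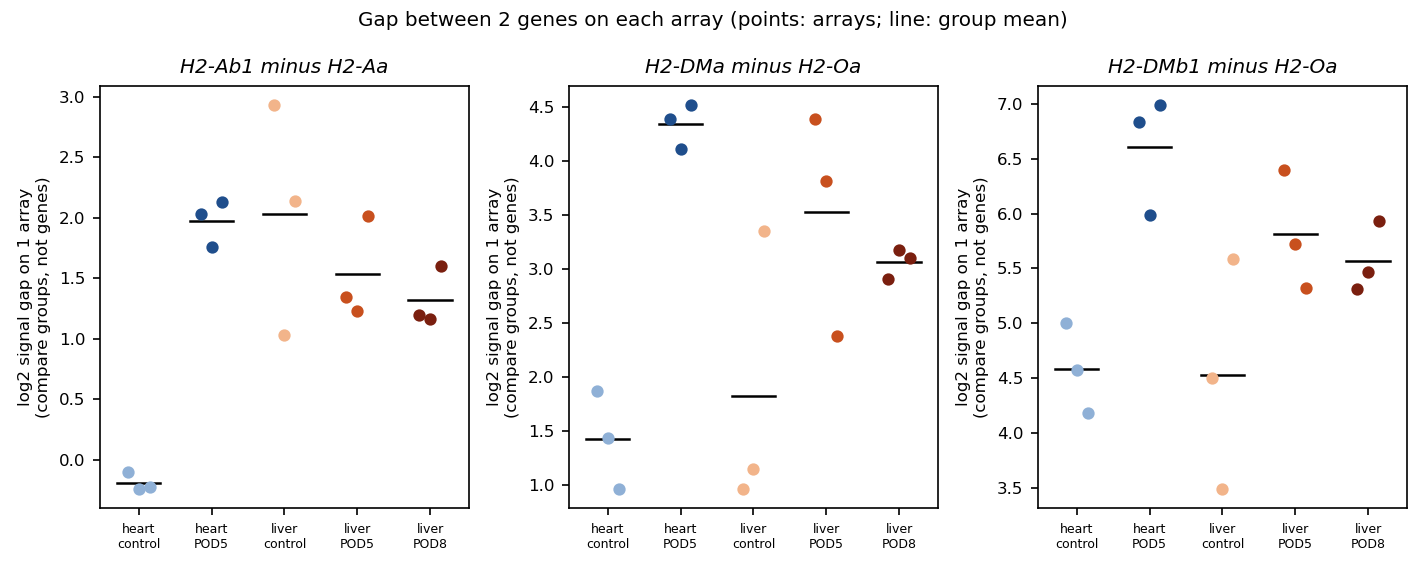
Gap in log2 signal between a pair of members on each array (y axis) by group (x axis), with points for arrays and lines for group means. The heart allografts lay above the heart controls in all 3 panels, while the liver groups overlapped in every panel.

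Of 8 genes on the path from interferon-gamma to Ciita, 5 were called higher in the heart allografts and none lower, and 6 were called higher at POD5 and 6 at POD8 in the liver. The shares of all probes called higher were 13.3%, 8.12% and 7.02%. Ifng, the cytokine itself, was at 14.84 ± 0.75 (SD, n = 3) in the heart allografts and 4.28 ± 0.19 in the controls, a difference of 10.55 ± 0.41 (adjusted P = 1.89e-08). In the liver it rose by 5.79 ± 0.41 at POD5 and 6.19 ± 0.41 at POD8 (adjusted P = 5.03e-06 and 3.15e-06). Irf1, a transcription factor that acts on the Ciita promoter, rose 18.4-fold in the heart, 3.29-fold at POD5 and 4.35-fold at POD8, and Socs1, the feedback inhibitor of the pathway, 56.1-fold, 16.6-fold and 20.1-fold. Jak2 rose 2.44-fold, 1.63-fold and 2.04-fold. Ifngr1, a receptor chain, was called in the liver, 2.05-fold and 1.59-fold higher, and measured 0.77-fold in the heart (adjusted P = 0.0917). Ifngr2, the other receptor chain, and Jak1, a kinase bound to the receptor, were called in no phase and measured -0.70 and -0.48 in the heart.

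The complex on which Ciita sits showed no call. Of 7 genes (Rfx5, Rfxank, Rfxap, Nfya, Nfyb, Nfyc and Creb1), none passed in any phase, and the median differences were 0.17, -0.01 and 0.01. Of all probes, 13.3%, 8.12% and 7.02% were called higher in these phases and 15.3%, 7.02% and 4.65% lower. Among so few genes, a count of none is not far from these shares. Rfx5, the DNA-binding RFX chain, had the largest difference each time, 2.56-fold in the heart (adjusted P = 0.112), 2.77-fold at POD5 (0.120) and 3.11-fold at POD8 (0.103). Its signal was dim, and it was well above background on 1 of 3 liver controls.

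Of 7 genes that cut and process in the endosome, 1 was called higher and 1 lower in the heart, shares near those of all probes (13.3% and 15.3%). In the liver 4 were called higher at POD5 and 5 at POD8, against 8.12% and 7.02% of all probes. In the interaction, 2 of the 7 were called, Ctsl and Ctsd, both smaller in the heart, and Ctss was not (-1.65 ± 0.57, adjusted P = 0.0635). Ifi30, the reductase that opens disulfide bonds, rose 4.63-fold in the heart, 5.17-fold at POD5 and 5.83-fold at POD8. Ctss, the protease that trims the invariant chain in most presenting cells, rose 5.64-fold and 7.16-fold in the liver and measured 1.80-fold in the heart (adjusted P = 0.136). Ctsl, another cathepsin, fell in the heart by 1.22 ± 0.14 on the log2 scale (adjusted P = 8.40e-05), and measured 0.04 and -0.04 in the liver. Of 3 genes that govern the life of class II at the surface, Cd83 rose 1.92-fold in the heart, 3.35-fold at POD5 and 7.13-fold at POD8. Marchf1, the ligase that marks class II for breakdown, rose 2.66-fold and 3.53-fold in the liver and measured 1.67-fold in the heart (adjusted P = 0.0618). Marchf8, a related ligase, was lower in the heart (0.62-fold, adjusted P = 0.00333) and at POD5 (0.70-fold, adjusted P = 0.0358), and measured 0.73-fold at POD8 (adjusted P = 0.0626).

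**Figure D4:**
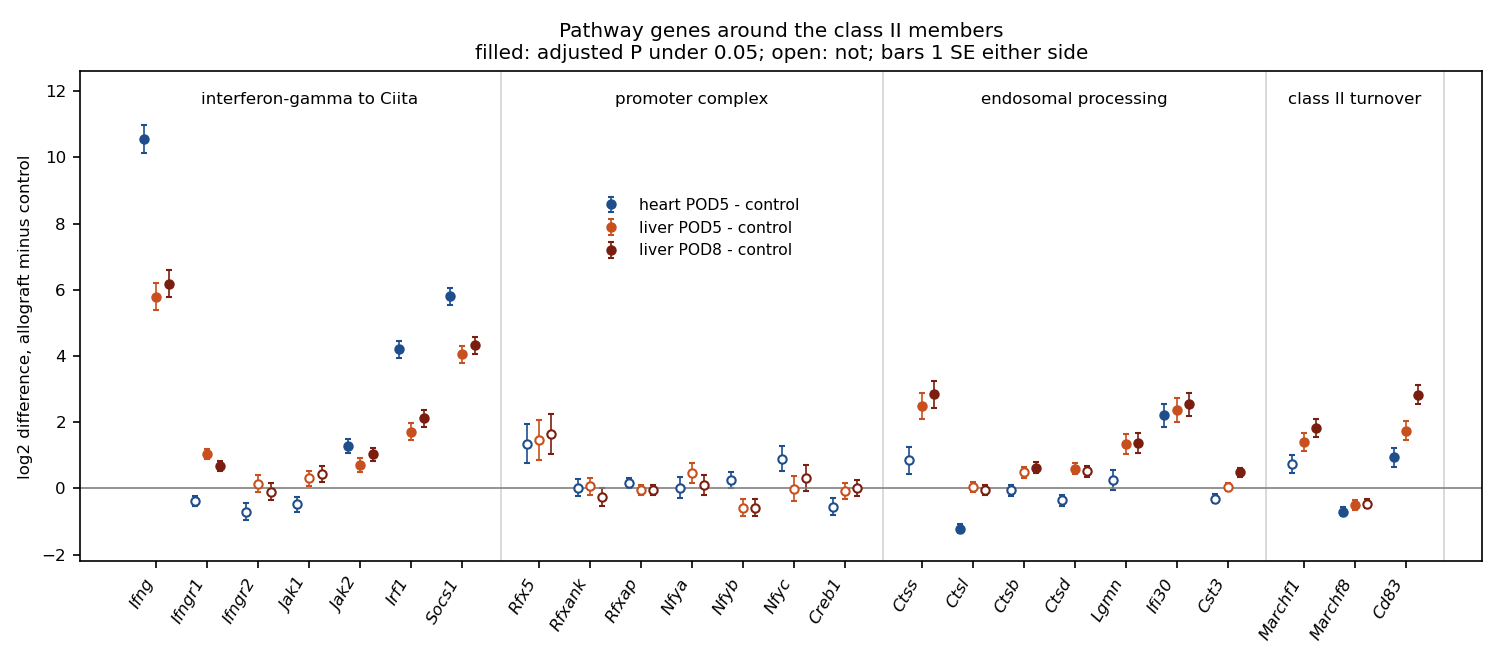
Log2 difference between allograft and control (y axis) for genes of 4 lists around the members (x axis), by phase, with bars for 1 SE either side, filled points for an adjusted P-value under 0.05 and open points otherwise. Ifng stood highest at 10.55 in the heart, and every point of the promoter complex was open.

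Among other class II chains, H2-DMb2 was called higher in each phase, with 10.9-fold in the heart, where 1 of 3 controls was well above background. In the liver controls its probe was not well above background on any array. Against the floor set by the dimmest probes above background it was at least 1.29-fold higher at POD8, and no fold is given for POD5. H2-Ob, the partner of H2-Oa in H2-O, was not called (0.17 in the heart, -0.32 at POD5 and 0.75 at POD8), and it was well above background on 1 heart allograft, 1 heart control and all 3 POD8 livers, and on no POD5 liver or liver control. H2-Eb2 was above background on no array.

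Markers of the cell types that a graft could hold were counted beside the members, and their part in the result was not tested. Of all probes, 13.3% were called higher and 15.3% lower in the hearts. The shares were 8.12% and 7.02% at POD5, and 7.02% and 4.65% at POD8. T cells, of which the CD4 cells read class II, are not among its main carriers in mice and had the most calls. Of 8 T cell genes, 8 were called higher in the hearts, 6 at POD5 and 6 at POD8. Their summed log2 level rose from between 8.90 and 9.43 to between 13.51 and 14.16 in the hearts, and from between 9.001 and 9.24 to between 12.95 and 13.68 at POD5 and 12.76 and 13.10 at POD8. Cd4 itself rose from a mean of 4.17 to 4.93 in the hearts, the least of the 8 genes. In the livers Cd4 was not higher, at 5.58 in controls, 5.43 at POD5 and 5.18 at POD8. Cd8a rose from 5.76 to 11.78 in the hearts, and from 3.05 to 11.03 at POD5 and 11.05 at POD8. For Cd8a no liver control was well above background. Of 8 B cell genes, 1 was called higher in the hearts, none in the POD5 livers and 1 in the POD8 livers (Cd22, 2.95-fold), near the shares of all probes. Their summed level lay between 9.31 and 10.78 in heart controls and 8.82 and 9.82 in heart allografts, and between 9.09 and 10.18 over all livers. Between 4 and 6 of them were well above background on an array. Of 7 dendritic cell genes, 4 were called higher and 2 lower (Zbtb46 and Cd209a) in the hearts, and 3 higher at each day in the liver. Their summed level rose from between 9.67 and 10.24 to between 12.43 and 12.69 in the hearts. In the livers it rose from between 10.02 and 10.21 to between 11.49 and 11.74 at POD5 and 11.95 and 12.09 at POD8. Sums are of linear signals, so the brightest genes weigh most. In the hearts these were Batf3 (mean 7.81 in controls and 11.49 in allografts) and Itgax (8.85 and 10.98). Zbtb46 (7.46 and 6.60) and Cd209a (5.38 and 2.18) went the other way, and Cd209a was well above background on no heart allograft. Of 7 macrophage genes, none was called higher and 1 lower in the hearts, near the shares of all probes, and 2 were called higher at POD5 and 5 at POD8. Their summed level lay between 15.40 and 15.93 in heart controls and 15.84 and 16.17 in heart allografts, and between 14.51 and 14.77 at POD5 and 15.01 and 15.20 at POD8. In the liver controls it was 12.19, 14.21 and 14.08, so that control 1, the dimmest array and the low one for H2-Aa and H2-DMa, stood apart and the other 2 lay near the POD5 livers. Without liver control 1, H2-Aa differed by 3.43 at POD5 and 4.08 at POD8 and H2-DMa by 3.03 and 3.22, all still called. Of 8 endothelial genes, 6 were called lower in the hearts, 1 lower at POD5 and 1 higher at POD8. Their summed level went from between 14.47 and 14.95 to between 13.01 and 13.16 in the hearts, and lay between 12.15 and 12.89 in all livers.

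The members differed in how closely they followed each other. Each gene's levels were centred on their mean over the 15 arrays, and the root mean square distance to the mean profile of the other members was taken. H2-DMb1 lay closest to the rest, at 0.24 log2 units, then Cd74 at 0.33, Ciita at 0.46, H2-Ab1 at 0.51, H2-DMa at 0.57 and H2-Aa at 0.73, and H2-Oa furthest, at 1.04. Among 21564 other genes, those whose centred levels lay nearest to the mean profile of the 7 members ran from Gbp9 at 0.24 to Irf8 at 0.42. Between them stood Parvg (0.36), Coro2a (0.38), Rasal3 (0.38), Cd160 (0.40) and Septin1 (0.41), and 2 transcripts known here by accession only. Gbp9 differed by 3.23 in the hearts, 3.01 at POD5 and 3.31 at POD8, and Irf8 by 3.83, 2.35 and 2.76. This likeness is over 15 arrays that share their normalization, and it mostly follows the 5 group means.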

How the data were processed

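Total RNA of 15 mouse heart and liver samples was labelled with Cy3 and hybridized to 1-colour Agilent arrays. The authors deposited, per the file headers, intensities read by Feature Extraction 10.5.1.1 (local background subtracted, not normalized between arrays). The scanner's marks of spots well above background, outlying or saturated were used as deposited, and 0 spots were saturated.

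Processed intensities were put on the log2 scale, without control spots and those marked as outliers. Repeated spots gave 1 mean per probe, and quantile normalization ran over all 15 arrays. Limma (limma 3.58.1 in R 4.3.3) fitted 5 group means in 1 model, with 2-sided tests and Benjamini-Hochberg adjustment over 41003 probes. Of 41174 probes, 26690 (64.8%) were named through RefSeq accessions (GRCm38.p6, names only), and the brightest probe stood for a gene. Genes named in the text were the 8 members, the other genes of the fixed pathway and marker lists with the values the text turns on, and the 10 genes nearest to the members' mean profile. Examples from the lists were chosen after their values were seen. List genes without a matched probe (Cd68, Clec9a, Cps1, Serpina1a, H2-Ea) were not used here. Some other genes of these lists are counted but not reported here by name.

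The arrays' number and signal over background limit the precision. On simulated data, of 200 probes changed by a log2 difference of 3, 85.0% were called in the heart comparison, 88.0% at POD5 and 89.5% at POD8. The members and lists were chosen with earlier results of these data known. Alternatives covered scaling, background correction (normexp, offset 50, on median signals), filters, priors, blocks, SFC, the methods' t-test and leaving out each array. Comparisons within shared slides and over all probe pairs were added after seeing the data. Figures used matplotlib 3.10.9.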

Additional observations from a re-analysis of the deposited data

Results flagged for a closer look

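Some genes passed the test of a difference between the heart and liver rise at POD5, the interaction term of limma (heart minus liver difference, log2, with adjusted P-values over all probes). Among the members, H2-Ab1 gave 1.01 on its brightest probe (adjusted P = 0.0478) and 2.05 on another (adjusted P = 0.0430), and H2-Aa gave -1.65 on its brightest probe (adjusted P = 0.0363). The third H2-Ab1 probe gave 0.86 (adjusted P = 0.0777) and the second H2-Aa probe -0.94 (adjusted P = 0.430), and with the slide as a random block neither brightest probe was called (adjusted P = 0.101 for H2-Ab1 and 0.108 for H2-Aa). On the path to Ciita, Ifng gave 4.76 (adjusted P = 4.90e-04), Irf1 2.48 (adjusted P = 0.00116), Socs1 1.76 (adjusted P = 0.00787) and Ifngr1 -1.41 (adjusted P = 0.00181). Among the endosomal proteases, Ctsl gave -1.26 (adjusted P = 0.00227) and Ctsd -0.95 (adjusted P = 0.0179). Of all probes, 8.49% and 9.54% were called larger and smaller in the heart. Heart allografts and heart controls lay on separate slides, as did POD5 livers and liver controls. Heart and liver grafts also differed in the strains of donor and recipient and in placement. The parts of slide, strains and placement in these differences cannot be told apart from the organ's response.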

How the results depend on the processing

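Over 917 values of single members under other settings, 841 kept their side of the threshold. Of the rest, 70 kept the direction but lost the call and 6 gained a call. With a call on either side, 0 reversed. In the hearts, SFC with Bonferroni adjustment called 3 of the 7 members, H2-Ab1, H2-DMa and Ciita. The methods' t-test, with Benjamini-Hochberg in place of their Bonferroni adjustment, called 4 at POD5. Limma with Bonferroni adjustment called 0 in the comparison of control organs, 1 in that of POD5 heart and liver allografts and 0 for the interaction. The interaction also had 1 call with the mean of all probes of a gene, 0 with the slide as a random block and 0 to 2 when single arrays were left out. With the replicate block it had 1 (H2-Aa at adjusted P = 0.0572), and the block changed no other call. The replicate numbers did not pair the arrays, since the deviations of same-numbered arrays correlated between -0.12 and 0.09 over 18 pairs. Within the slide that held 2 POD8 livers and 2 liver controls, all 7 members were higher in the allografts by 2.18 to 4.89, and 0 were called (adjusted P between 0.0531 and 0.141). The cause of these changes was not tested, and the last fit also had fewer arrays. Uncalled values turned sign for H2-DMa between POD8 and POD5 (down to -0.06) and for H2-Oa in the interaction (up to 0.23). These are counted among the 841. H2-Oa lost its call under 7 settings in the hearts, 7 at POD5 and 5 at POD8, the most of any member in these comparisons. Counts over all probes moved more. In the hearts, 5433 were called higher and 6288 lower, against 514 and 428 with Bonferroni adjustment, 140 and 103 by SFC and 3354 and 3872 with the slide block. At POD5 in the liver, 3329 and 2878 became 177 and 54 by the methods' t-test, 360 and 19 with Bonferroni adjustment, 323 and 39 by SFC, 1096 and 410 with the 6 arrays alone, 2369 and 1713 within the organ, 2321 and 1263 with the slide block and 2432 and 1382 without allograft 1. At POD8, 2880 and 1907 became 615 and 209, 317 and 9, 357 and 43, and 1538 and 700 under the first 4 of these, 1902 and 720 without allograft 2, 1999 and 747 without allograft 1, 3629 and 3651 without liver control 3, and 0 and 0 within the slide. Between POD8 and POD5, 9 and 3 became 46 and 84 without POD8 allograft 3, and 0 and 0 with the 6 arrays alone. For the interaction, 3483 and 3910 became 75 and 108 with Bonferroni adjustment, 2194 and 2591 with the slide block, 2115 and 2630 without heart control 3, and 13569 and 3284 on the 75th percentile scale. Bonferroni adjustment left 2767 and 2466 of 11306 and 10819 between the control organs, and 1273 and 1789 between the POD5 allografts.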
